A study of Arabidopsis thaliana with 10 samples.

Results

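The iron deficiency regulators described here are 10 genes of Arabidopsis thaliana, taken by their gene IDs from the 33602 genes of the deposited count table. They are the transcription factor genes BHLH38 (AT3G56970), BHLH39 (AT3G56980), BHLH100 (AT2G41240) and BHLH101 (AT5G04150), the peptide genes IMA1 (AT1G47400), IMA2 (AT1G47395) and IMA3 (AT2G30766), the transcription factor gene PYE (AT3G47640), the ubiquitin ligase gene BTS (AT3G18290) and the transporter gene OPT3 (AT4G16370). All 10 passed the filter on low counts, as did 19768 genes in all. RNA with poly(A) tails came from the fifth true leaf at 4 weeks of age, in 10 libraries that form 5 groups of 2. Days of 16 h light and 8 h dark were given for all 10 libraries. The wild-type group was Col-0 kept at 22 °C, and the 30 °C-grown group (generation 1) was Col-0 moved to 30 °C at the transfer to soil. Generation 2 was the unstressed progeny of the 30 °C-grown plants, generation 3 was the unstressed progeny of generation 2, and the last group held unstressed sgs3-12 mutants. SGS3 is a protein of the trans-acting small RNA pathway. The labels do not say whether libraries of a group are separate plants or pools. The p-values here set a group difference against the spread between libraries, estimated over all 5 groups together, and that spread may be technical.

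Plants short of iron turn on a cascade of basic helix-loop-helix (bHLH) factors. Factors such as ILR3 and BHLH115 activate the Ib group of bHLH genes (BHLH38, BHLH39, BHLH100 and BHLH101), PYE, BTS and the IMA genes. In roots the Ib factors work with FIT to switch on iron uptake. BTS, an iron-binding ubiquitin ligase, marks ILR3 and its relatives for breakdown, and IMA peptides bind BTS and hold it off. PYE represses genes of iron movement and storage such as NAS4, ZIF1, FRO3 and the ferritin genes, and OPT3 loads iron into the phloem and so reports the iron state of the shoot to the root. In leaves these genes are known markers of low iron, while ferritins, the plastid proteins that store iron, are markers of ample iron.

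Levels are given as CPM, counts scaled to the library total, with TMM scaling as a correction for library composition. Total counts per library ran from 17674090 to 23145159, so that the 3 counts taken as the upper limit of a zero correspond to 0.120 to 0.199 CPM (counting error only). The 6 leaf markers (rubisco, its activase and an antenna protein) summed to 39542 to 82454 CPM, and the 7 root markers to 0.600 to 14.2 CPM with 4 to 6 of them at 0. Nearly all of that highest sum is PYK10, a root glucosidase gene, whose levels ran with the regulators (r = 0.87 with their mean over the 10 libraries): it was at 0 and 4.82 CPM in the wild-type pair, 14.1 and 3.17 CPM in 30 °C-grown plants, 0 and 0.583 CPM in generation 2, 0 and 4.13 CPM in generation 3, and 0.280 and 1.69 CPM in sgs3-12. NRT2.1, a root nitrate transporter gene that did not exceed 0.673 CPM, ran opposite (r = −0.88), and the part of root markers in the regulators' levels was not tested. SGS3, the gene mutated in sgs3-12, had 24.1 and 35.1 CPM in wild type against 9.40 and 8.02 CPM in sgs3-12, and 9.48 and 7.87 CPM in generation 2. Levels also leaned on gene length. Relative to the mean of the 10 libraries, log2(CPM + 1) fell by 1.80 per 10-fold of length in library 1 of generation 2 and by 0.96 in library 1 of generation 3, the steepest falls, while the other 8 libraries had slopes from −0.35 to 0.96, the highest in library 1 of sgs3-12. In leaf tissue measured in bulk, fewer cells of a type and less RNA per cell cannot be told apart.

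The 4 Ib bHLH genes code for factors that switch on iron acquisition genes. BHLH38 (chromosome 3, 21084110 to 21085150, TAIR10) was at 0 and 32.6 CPM in wild type, at 79.7 and 70.3 CPM in 30 °C-grown plants, at 1.63 and 0 CPM in generation 2, at 0 and 11.0 CPM in generation 3, and at 4.88 and 6.95 CPM in sgs3-12. Its high libraries were thus both 30 °C-grown ones and library 2 of wild type, and the wild-type pair held one of the highest and one of the lowest values. BHLH39 lies next to it at a gap of 1395 bp (21086546 to 21087494), and the coding sequences of the pair are 83.1% identical. With a longest identical run of 34 bases, reads can fit both genes only in part, and the handling of such reads, not given in the sources used here, leaves their split uncertain. BHLH39 read 0 and 17.4 CPM in the wild-type pair, 58.8 and 53.4 CPM in 30 °C-grown plants, 1.74 and 0.146 CPM in generation 2, 0 and 7.78 CPM in generation 3, and 1.80 and 3.74 CPM in sgs3-12. Its libraries stood in the same order as those of BHLH38, apart from ties at 0.

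BHLH100 (chromosome 2, 17198282 to 17199320) had the widest range of the 4, from 0 to 130.2 CPM. It was at 0 and 39.6 CPM in the wild-type pair, 108 and 130.2 CPM in 30 °C-grown plants, 1.12 and 0.729 CPM in generation 2, 0 and 9.97 CPM in generation 3, and 4.12 and 5.48 CPM in sgs3-12. Here the 30 °C-grown libraries lay above every other library. BHLH101 (chromosome 5, 1138559 to 1139476) had 0.0884 CPM (2 counts) and 22.8 CPM in wild type against 21.9 and 26.8 CPM in 30 °C-grown plants. In contrast to the other 3, library 2 of wild type fell between the 30 °C-grown libraries, so those groups overlapped. BHLH101 was at 1.23 and 0.535 CPM in generation 2, 0.199 and 2.24 CPM in generation 3, and 1.32 and 1.87 CPM in sgs3-12.

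**Figure D1:**
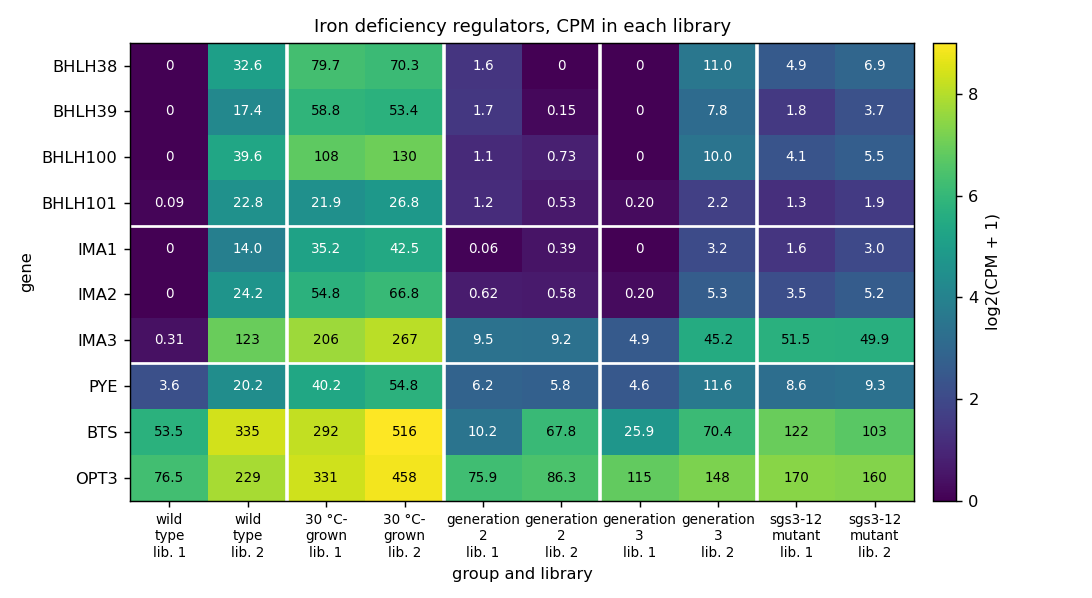
Level of each of the 10 iron deficiency regulators (rows) in each of the 10 libraries (columns), with CPM printed in the cells and log2(CPM + 1) as colour. Library 2 of wild type and both 30 °C-grown libraries carry the brightest cells in every row, from 14.0 CPM upward, and 5 genes read 0 in library 1 of wild type.

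The IMA genes code for short peptides that end in a conserved stretch, which is the part that binds BTS. The last 54 coding bases are printed to show how alike the members are, with the 37 bases shared by all 3 genes in capitals, read from TAIR10.1 on the plus strand at chr1:17385917-17385970 for IMA1, chr1:17383216-17383269 for IMA2 and chr2:13108158-13108211 for IMA3.
IMA1: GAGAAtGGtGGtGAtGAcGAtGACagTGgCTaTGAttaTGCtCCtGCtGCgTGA
IMA2: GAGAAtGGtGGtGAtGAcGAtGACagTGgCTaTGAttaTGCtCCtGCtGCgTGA
IMA3: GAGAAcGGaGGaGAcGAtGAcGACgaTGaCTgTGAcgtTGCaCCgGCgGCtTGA
IMA1 and IMA2 are identical over this stretch and 88.9% identical over their coding sequences, with a longest identical run of 55 bases and a gap of 2308 bp between them on chromosome 1. Their separate counts are therefore uncertain. IMA3 is 53.5% identical to IMA1 and 51.6% to IMA2, with no identical run longer than 5 bases in either alignment.

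IMA1 (17385717 to 17386186) was at 0 and 14.0 CPM in the wild-type pair, 35.2 and 42.5 CPM in 30 °C-grown plants, 0.0561 CPM (1 count) and 0.389 CPM in generation 2, 0 and 3.21 CPM in generation 3, and 1.64 and 2.98 CPM in sgs3-12. Its neighbour IMA2 (17383034 to 17383408) was at 0 and 24.2 CPM in the wild-type pair, 54.8 and 66.8 CPM in 30 °C-grown plants, 0.617 and 0.583 CPM in generation 2, 0.199 and 5.35 CPM in generation 3, and 3.48 and 5.21 CPM in sgs3-12. Both genes were highest in the 30 °C-grown libraries and next highest in library 2 of wild type. IMA3 (chromosome 2, 13107909 to 13108863) had 0.309 CPM (7 counts) and 123 CPM in wild type, the widest gap within a group among the 10 genes on the log2(CPM + 1) scale. It stood at 206 and 267 CPM in 30 °C-grown plants, 9.48 and 9.23 CPM in generation 2, 4.91 and 45.2 CPM in generation 3, and 51.5 and 49.9 CPM in sgs3-12. The locus overlaps AT2G30760 by 313 bp, but that gene had at most 11 counts in any library.

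PYE and BTS code for restraints on the response. PYE (chromosome 3, 17567126 to 17569385) was at 3.58 and 20.2 CPM in the wild-type pair, 40.2 and 54.8 CPM in 30 °C-grown plants, 6.22 and 5.83 CPM in generation 2, 4.58 and 11.6 CPM in generation 3, and 8.64 and 9.26 CPM in sgs3-12. It was detected in every library. BTS (chromosome 3, 6273995 to 6280510) was at 53.5 and 335 CPM in the wild-type pair, 292 and 516 CPM in 30 °C-grown plants, 10.2 and 67.8 CPM in generation 2, 25.9 and 70.4 CPM in generation 3, and 122 and 103 CPM in sgs3-12. Library 2 of wild type lay between the 30 °C-grown libraries. With a length of 4414 bp implied by the deposited FPKM, BTS is the longest of the 10 genes, and its lowest values came from the libraries where levels fell most steeply with length.

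OPT3 (chromosome 4, 9247302 to 9250091), the phloem iron transporter gene, was at 76.5 and 229 CPM in the wild-type pair, 331 and 458 CPM in 30 °C-grown plants, 75.9 and 86.3 CPM in generation 2, 115 and 148 CPM in generation 3, and 169.8 and 159.7 CPM in sgs3-12. Its highest and lowest libraries differed least among the 10 genes on a ratio scale. The 5 phloem markers, which include the sucrose transporter gene SUC2 and the proton pump gene AHA3, summed to 863 and 896 CPM in the wild-type pair, 534 and 842 CPM in 30 °C-grown plants, 328 and 747 CPM in generation 2, 532 and 718 CPM in generation 3, and 619 and 669.9 CPM in sgs3-12. The wild-type libraries, which differed for OPT3, were close in this sum but not in each marker, since APL stood at 12.1 and 24.8 CPM there and SULTR2;1 at 278 and 193 CPM. Whether the markers have a part in the OPT3 values was not tested.

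Levels of different genes were set side by side per length, as FPKM. In 30 °C-grown libraries, where FPKM was computed from counts and implied gene lengths, IMA3 had the highest level of the 10, at 274 and 356 FPKM, and PYE the lowest, at 22.2 and 30.3 FPKM. IMA2 followed at 159 and 195 FPKM and OPT3 at 147 and 205 FPKM, and these neighbours changed places between the libraries. BHLH100 was at 96.5 and 116 FPKM, but its implied length of 1222 bp exceeds its locus of 1039 bp, so its place in the order is uncertain. BHLH38 was at 95.2 and 84.2 FPKM, IMA1 at 81.6 and 98.9, BHLH39 at 76.0 and 69.1, and BTS at 72.1 and 128 FPKM. The ranges of BHLH38, IMA1 and BTS overlapped, BHLH39 lay below BHLH38 and IMA1 in each library, and BHLH101 stood lower at 33.0 and 40.4 FPKM.

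For each of the 10 genes the 10 libraries fell in the same tiers. The highest 3 were library 2 of wild type and both 30 °C-grown libraries. Ranks 4 to 6 were taken by library 2 of generation 3 and both sgs3-12 libraries. The lowest 4 were library 1 of wild type, library 1 of generation 3 and both generation 2 libraries. Of the 19768 genes tested, 3.18% had the same 3 libraries on top. Those 3 libraries were taken from the pattern of these 10 genes, so the share is a description and no test. The labels give no batch, and what these libraries share was not tested.

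The wild-type pair carried the largest gaps. On the log2(CPM + 1) scale, library 2 exceeded library 1 of wild type for all 10 genes, by 1.57 to 6.56 with a median of 4.33. All 10 lay past the absolute difference of 1.51 that 5% of the tested genes exceeded. Library 2 was at least 246-fold higher than library 1 for BHLH38, at least 131-fold for BHLH39, at least 298-fold for BHLH100, at least 106-fold for IMA1 and at least 182-fold for IMA2, each with 3 counts in library 1 as the floor. The ratio was 397 for IMA3, 6.27 for BTS, 5.64 for PYE and 2.99 for OPT3. Only 9 tested genes were at 0 in library 1 of wild type and at 10 CPM or more in library 2, and 5 of those were BHLH38, BHLH39, BHLH100, IMA1 and IMA2. The other 4 were bZIP2, AT2G14247, AT5G49448 and AT1G13609. The members were chosen with earlier results of these data known, so these counts describe the values and test nothing.

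Generation 3 had the next widest pair, with library 2 above library 1 for all 10 genes by a median of 2.24, and 6 of the 10 lay past the 1.67 that 5% of genes exceeded there. In 30 °C-grown plants the difference ranged from −0.18 to 0.82 and in sgs3-12 from −0.25 to 0.76, and 0 of 10 lay past that mark in either group. In generation 2 the range was −1.39 to 2.62, also with 0 of 10 past it, in the pair whose libraries differed most over all genes (median absolute difference 0.80). The extreme at 2.62 belonged to BTS.

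The bases before the gene starts were read for members that moved together. The factors of this cascade bind E-boxes (CANNTG), of which CACGTG is the G-box form. The palindromic CACGTG was found in the 250 bases upstream of 4 of the 10 genes, against 6.49% of 27443 protein-coding genes, and CANNTG, which includes it, upstream of 8 of 10, against 55.3%. The gene starts are those of RefSeq on TAIR10.1. The window of IMA3, one of those 8, lies wholly within AT2G30760 on the other strand, and its RefSeq start (13107583) lies upstream of the one in the deposited table (13107909). The 4 windows with a G-box are printed 5′ to 3′ toward the gene with CACGTG in capitals, all but BTS on the minus strand: BHLH38 at chr3:21085246-21085495, BHLH100 at chr2:17199455-17199704, BTS at chr3:6273716-6273965 and OPT3 at chr4:9250344-9250593.
BHLH38: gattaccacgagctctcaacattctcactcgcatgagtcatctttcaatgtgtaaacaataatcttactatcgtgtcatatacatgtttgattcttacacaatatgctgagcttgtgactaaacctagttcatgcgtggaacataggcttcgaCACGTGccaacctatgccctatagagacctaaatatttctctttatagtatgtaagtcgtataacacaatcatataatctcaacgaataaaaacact
BHLH100: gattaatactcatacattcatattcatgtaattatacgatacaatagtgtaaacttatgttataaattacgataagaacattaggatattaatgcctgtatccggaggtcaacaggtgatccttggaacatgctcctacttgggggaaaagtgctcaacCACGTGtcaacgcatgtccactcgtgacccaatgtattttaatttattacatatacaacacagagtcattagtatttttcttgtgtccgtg
BTS: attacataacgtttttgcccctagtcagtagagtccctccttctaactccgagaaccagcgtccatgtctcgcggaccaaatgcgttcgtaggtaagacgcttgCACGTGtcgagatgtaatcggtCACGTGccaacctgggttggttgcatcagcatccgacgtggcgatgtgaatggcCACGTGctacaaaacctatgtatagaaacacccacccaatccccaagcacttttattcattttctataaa
OPT3: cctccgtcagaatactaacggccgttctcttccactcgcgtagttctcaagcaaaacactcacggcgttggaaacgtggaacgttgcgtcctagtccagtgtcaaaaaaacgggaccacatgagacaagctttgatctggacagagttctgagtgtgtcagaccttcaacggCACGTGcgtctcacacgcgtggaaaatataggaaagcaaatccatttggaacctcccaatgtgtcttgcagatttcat
The first base of the motif lay 97 bases before the start of BHLH38, 91 before BHLH100 and 78 before OPT3. BTS held 3 copies, at 146, 124 and 70 bases. A match describes these letters only, and the genes without one in this window (BHLH39, BHLH101, IMA1, IMA2, IMA3 and PYE) had their libraries in the same tiers.

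The comparison of 30 °C-grown plants with wild type asks what growth in the heat does. All 10 regulators had higher fitted levels in 30 °C-grown plants, with a median log2 fold change of 2.099 (range 1.06 to 2.69), where the median of all tested genes was −0.02. For 8 of them, all but BHLH101 and BTS, the 30 °C-grown pair was wholly above the wild-type pair, as it was for 26.3% of all tested genes. OPT3 had 1.37 ± 0.51 (SE, n = 2 per group; edgeR adjusted p = 0.572) and PYE 2.00 ± 0.75 (edgeR adjusted p = 0.572), while BHLH39 had 2.69 ± 2.12 (edgeR adjusted p = 0.822). OPT3 and PYE were the 2 with an unadjusted edgeR p under 0.05, and edgeR's quasi-likelihood test with Benjamini-Hochberg adjustment called 0 of the 10 (0.0% of all genes, 1564 genes at an unadjusted p under 0.05). DESeq2 called 0 of the 10 as well, against 279 of the 24527 genes it tested.

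How large the difference looked depended on which wild-type library it was set against. Without library 1 of wild type the median over the 10 genes was 1.21, with OPT3 at 0.78, PYE at 1.23, BTS at 0.27 and BHLH101 at 0.09. Without library 2 it was 2.36 for OPT3, 3.72 for PYE and 2.91 for BTS, with the other 7 genes set against 0 to 7 counts. All 10 stayed positive in each of these fits.

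**Figure D2:**
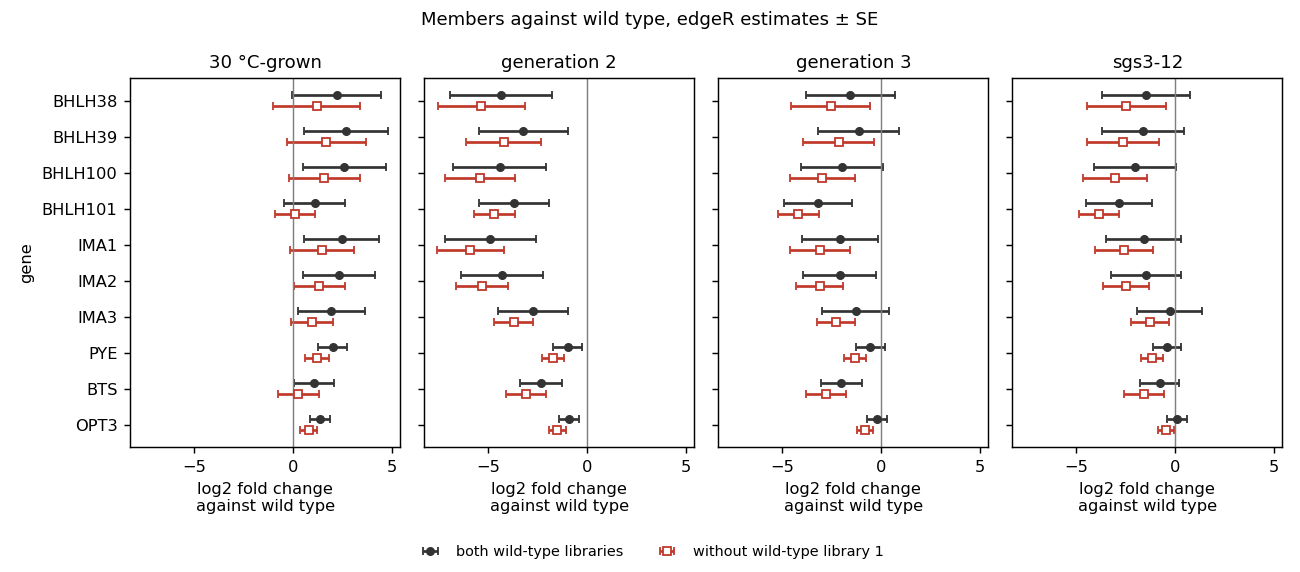
Log2 fold change against wild type (horizontal axis, edgeR estimate ± SE) of the 10 regulators, 1 panel each for 30 °C-grown plants, generations 2 and 3 and sgs3-12, with both wild-type libraries (filled circles) and without library 1 of wild type (open squares). With both libraries the estimates run from 1.06 to 2.69 in 30 °C-grown plants and from −4.90 to −0.91 in generation 2, and every open square lies to the left of its circle.

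The unstressed progeny was set against its 30 °C-grown ancestors to ask whether the levels of those plants were also found in the progeny. In generation 2 all 10 regulators were lower, with a median log2 fold change of −5.34 (range −7.37 to −2.28) against 0.07 for all tested genes. Both generation 2 libraries lay below both 30 °C-grown libraries for all 10, as they did for 18.7% of all tested genes. OPT3 had −2.28 ± 0.53 (SE, n = 2 per group; edgeR adjusted p = 0.476, DESeq2 adjusted p = 0.00492) and PYE −2.98 ± 0.78 (edgeR adjusted p = 0.476, DESeq2 adjusted p = 0.0122). BTS had −3.37 ± 1.10 (edgeR adjusted p = 0.476, DESeq2 adjusted p = 0.0427), and it lay at −2.54 without library 1 of generation 2 and library 1 of generation 3, the libraries where levels fell most steeply with length. IMA1 had the largest estimate, −7.37 ± 2.49, from 1 and 8 counts against 725 and 1006.

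edgeR called 0 of the 10 in generation 2 against 30 °C-grown plants (0.0% of all genes), with adjusted p from 0.476 to 0.528, and all 10 were lower at an unadjusted p under 0.05, as were 4.05% of all tested genes. DESeq2 called OPT3, PYE and BTS lower, as it did 0.465% of the genes it tested. The 10 genes are not independent replicates of one another, since they share the 4 libraries and a pathway.

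In generation 3 all 10 were again lower than in 30 °C-grown plants, with a median of −3.79 (range −4.57 to −1.58) against −0.01 for all genes. The groups did not overlap for any of the 10, nor for 23.5% of all tested genes in that direction. OPT3 had −1.58 ± 0.52 (edgeR adjusted p = 0.603), PYE −2.55 ± 0.76 (edgeR adjusted p = 0.598), BTS −3.07 ± 1.08 (edgeR adjusted p = 0.645) and BHLH101 −4.28 ± 1.77 (edgeR adjusted p = 0.701). These 4 were at an unadjusted p under 0.05, as were 3.56% of all genes in that direction. edgeR called 0 of 10 (0.0% of all genes), as did DESeq2, which called 214 of the 24527 genes it tested. The generation comparisons share the 30 °C-grown libraries. Both sgs3-12 libraries also lay below both 30 °C-grown libraries for all 10 genes, as for 34.1% of all tested genes.

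**Figure D3:**
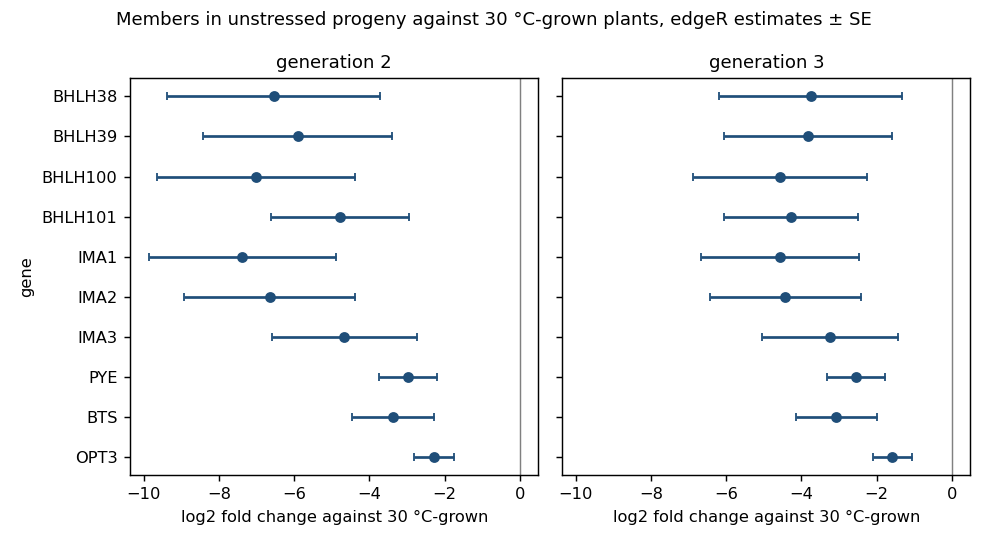
Log2 fold change against 30 °C-grown plants (horizontal axis, edgeR estimate ± SE) of the 10 regulators in generation 2 and in generation 3. All 20 estimates lie left of 0, from −7.37 for IMA1 in generation 2 to −1.58 for OPT3 in generation 3.

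Against wild type, the question for the progeny and for the mutant is whether levels differed from plants never exposed to heat. The 10 regulators had negative estimates in generation 2 (median −3.46) and in generation 3 (median −1.77), where all genes had medians of 0.11 and 0.04. In sgs3-12, 9 were negative and OPT3 stood at 0.11 ± 0.50, with a median of −1.47 against 0.01. For 0 of 10 genes did both libraries of generation 2 lie below both of wild type (17.2% of all tested genes), and the count was 0 of 10 in generation 3 as well (22.2%). edgeR called 0 of 10 in generation 2, generation 3 and sgs3-12 (0.0% of all genes in each), and 0 of 10 had an unadjusted p under 0.05. DESeq2 called 0 of 10 in each, against 619, 191 and 590 of the 24527 genes it tested, in the same order.

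These directions rest on library 2 of wild type. Without it the estimate in generation 2 was 0.69 for PYE and 0.03 for OPT3, and in generation 3 it was 1.15 for PYE and 0.75 for OPT3. In sgs3-12 it was 1.30 for PYE and 1.05 for BTS. Only BTS in generation 2 and generation 3 stayed negative without either wild-type library, at −0.43 and −0.17 without library 2. Without library 1 the medians over the 10 genes were −4.45, −2.68 and −2.47 in generation 2, generation 3 and sgs3-12.

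The lists of other iron genes were taken by their place in the pathway. Of the 9 upstream regulators, all tested, 7 were positive in generation 2 against 30 °C-grown plants (median 0.38), as were 10793 of all 19768 tested genes. edgeR called 0 of the 9 (0.0% of all genes), as did DESeq2, which called 319 of 24527 genes. BTSL1 was lower at an unadjusted edgeR p under 0.05, as were 801 of all tested genes. The activator genes ILR3 (81.3 to 172 CPM) and BHLH104 (34.3 to 71.7 CPM) kept a narrow range over the 10 libraries. BHLH115 (20.9 to 42.8 CPM) and BHLH34 (3.48 to 20.8 CPM) were lowest in library 2 of wild type and both 30 °C-grown libraries. This held for 2 of the 9, against 3.43% of all tested genes, and 0 of the 9 had those libraries on top. BTSL1, a relative of BTS known from roots, stood at 0.398 and 4.13 CPM in wild type against 0.168 and 0.146 CPM in generation 2 (−3.80 ± 1.34, edgeR adjusted p = 0.364). BHLH34, an activator, stood at 13.1 and 3.48 CPM in wild type against 20.1 and 20.8 CPM in sgs3-12 (1.30 ± 0.57, edgeR adjusted p = 0.509). URI, another activator, stood at 43.3 and 43.2 CPM in wild type against 23.9 and 34.2 CPM in generation 2 (−0.57 ± 0.33, edgeR adjusted p = 0.521).

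Most genes of root iron uptake were near or at 0 in these leaves, apart from AHA2 (58.1 to 186 CPM) and F6H1 (up to 14.5 CPM); the other 7 on the list did not exceed 3.65 CPM. IRT1, the main root iron importer, was at 0 in 9 libraries and had 2 counts in library 2 of 30 °C-grown plants, and S8H and CYP82C4 were at 0 in all 10. FIT, which is on the list of upstream regulators, did not exceed 5.64 CPM. Of the 9 genes on the root uptake list, 5 had enough counts to test, and edgeR called 0 in any comparison, with F6H1 alone at an unadjusted p under 0.05 (in generation 2 and sgs3-12 against wild type and in generation 2 against 30 °C-grown plants). The coumarin synthesis gene F6H1 (also written F6'H1) was at 0 and 0 CPM in the wild-type pair, 0 and 14.5 CPM in generation 2, and 0.800 and 4.28 CPM in sgs3-12. DESeq2 called it higher than wild type in all 4 comparisons, including 30 °C-grown plants at 0.0486 CPM (1 count) and 0. The proton pump gene AHA2 stood at 186 and 112 CPM in wild type against 58.1 and 119.7 CPM in generation 2 (−0.75 ± 0.44, edgeR adjusted p = 0.531). The coumarin exporter gene ABCG37 stood at 0.928 and 1.44 CPM in wild type against 0.0561 and 0.875 CPM in generation 2 (−1.31 ± 1.07, edgeR adjusted p = 0.627).

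Of 15 genes for iron chelation and transport, 13 were tested, and 3 had the regulators' top tier, with library 2 of wild type and both 30 °C-grown libraries on top: FRO3, ZIF1 and NRAMP4. FRO3, a mitochondrial ferric reductase gene and a known PYE target, was at 28.9 and 154.5 CPM in the wild-type pair, 133.5 and 173 CPM in 30 °C-grown plants, 18.7 and 19.0 CPM in generation 2, 32.4 and 36.6 CPM in generation 3, and 33.7 and 37.2 CPM in sgs3-12. It was −3.02 ± 0.69 in generation 2 against 30 °C-grown plants (edgeR adjusted p = 0.476, DESeq2 adjusted p = 0.00227) and −2.28 ± 0.67 against wild type (edgeR adjusted p = 0.357, DESeq2 adjusted p = 0.0319). NAS3, a nicotianamine synthase gene, ran the other way, with 13.7 and 0.881 CPM in wild type, then 0.486 and 0.0846 CPM in 30 °C-grown plants against 33.6 and 13.6 CPM in generation 2 and 25.8 and 25.9 CPM in generation 3. NRAMP1, a metal transporter gene, stood at 12.2 and 14.4 CPM in wild type against 26.6 and 45.2 CPM in sgs3-12 (1.43 ± 0.51, edgeR adjusted p = 0.433). In generation 2 against 30 °C-grown plants, DESeq2 called NAS3 higher and FRO3 lower on this list, against 205 higher and 114 lower of 24527 genes. edgeR called 0 on the list, with 2 higher and 4 lower at an unadjusted p under 0.05. Over all 19768 tested genes, 1048 were higher and 801 lower at that p. The list's median was −0.45.

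**Figure D4:**
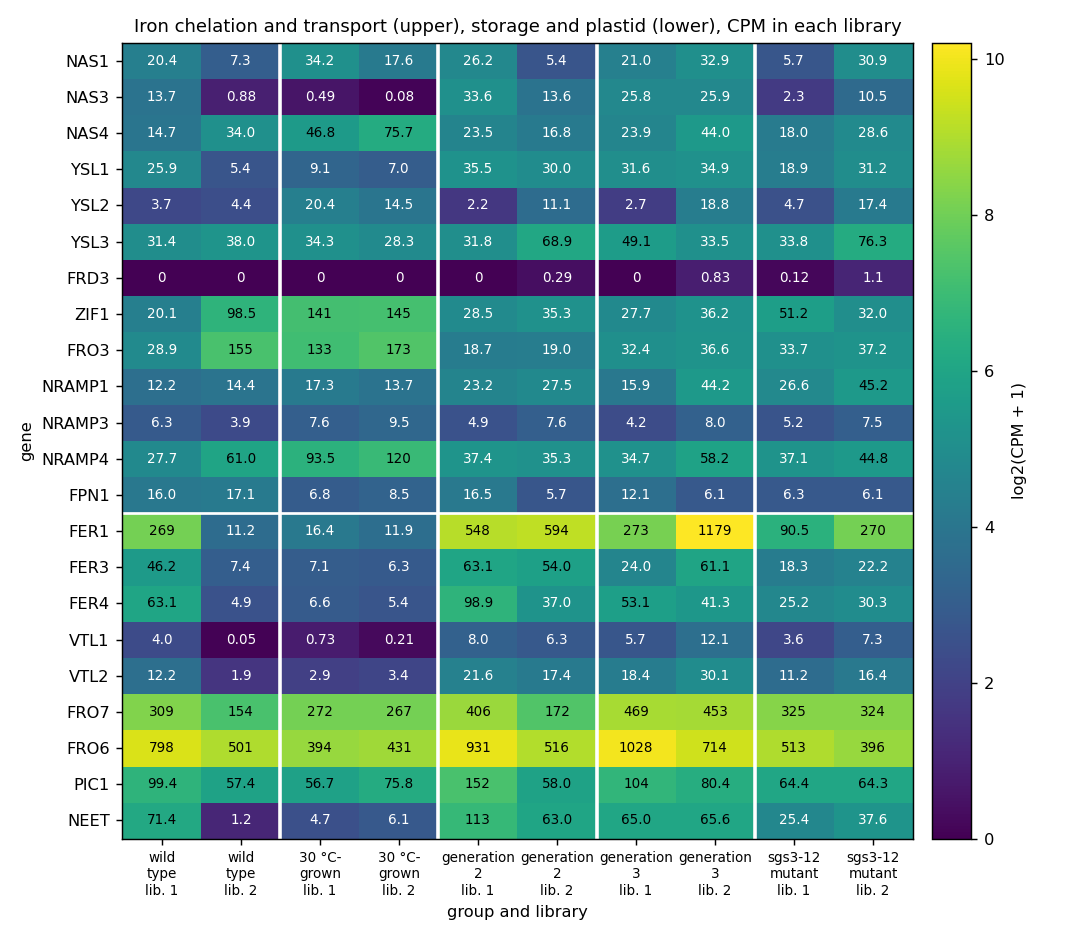
Level of the other iron genes (rows) in each of the 10 libraries (columns), with CPM printed in the cells and log2(CPM + 1) as colour. FRO3, ZIF1 and NRAMP4 are highest in library 2 of wild type and both 30 °C-grown libraries, where FER1 (11.2 to 16.4 CPM), FER3 and FER4 are lowest.

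Iron storage and plastid iron genes were lowest where the regulators were highest for most genes tested. FER1, a ferritin gene of leaf plastids, was at 269 and 11.2 CPM in the wild-type pair, 16.4 and 11.9 CPM in 30 °C-grown plants, 548 and 594 CPM in generation 2, 273 and 1179 CPM in generation 3, and 90.5 and 270.2 CPM in sgs3-12. The 3 libraries in which the regulators were highest were the 3 lowest for FER1. The same held for FER3, FER4, the vacuolar iron transporter-like genes VTL1 and VTL2 and the iron-sulfur protein gene NEET, hence for 6 of the 9 tested genes on a list of 12, and for 3.43% of all tested genes. Summed over FER1, FER3 and FER4, the level was 379 and 23.4 CPM in the wild-type pair, 30.1 and 23.6 CPM in 30 °C-grown plants, 710.4 and 685 CPM in generation 2, 349.8 and 1282 CPM in generation 3, and 134 and 323 CPM in sgs3-12. The 10 regulators summed to 134 and 858 CPM, 1228 and 1686 CPM, 108 and 172 CPM, 151 and 315 CPM, and 369 and 348 CPM in the same order of groups. Generation 3 broke the mirror image, since its library 2 was the higher for both sums.

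In generation 2 against 30 °C-grown plants all 9 tested storage genes were positive (median 3.12). At an unadjusted edgeR p under 0.05, 6 of them were higher, as were 1048 of all 19768 tested genes. edgeR called 0 of the 9, and DESeq2 called 5 higher (FER1, FER3, FER4, VTL2 and NEET), against 205 of the 24527 genes it tested. FER1 had 5.34 ± 1.44 (edgeR adjusted p = 0.476, DESeq2 adjusted p = 0.000918). In generation 3 all 9 were positive as well (median 2.96), 7 of them at an unadjusted edgeR p under 0.05, as were 657 of all 19768 genes. There edgeR called 0 of the 9, and DESeq2 called 2 higher (FER1 and VTL2), against 123 of 24527 genes. Against wild type, 30 °C-grown plants had 8 of 9 negative with a median of −1.99, led by FER1 at −3.31 ± 1.31, FER4 at −2.51 ± 0.99 and FER3 at −1.99 ± 0.78 (edgeR adjusted p = 0.592 for each). Without library 1 of wild type that median was 0.34 and 7 of 9 were positive, so the direction turned.

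The genes whose pattern over the 10 libraries was most like the mean of the regulators were ranked by Pearson's r on log2(CPM + 1), as a description over libraries that all these genes share. The 8 highest were the defensin-like gene AT1G13609 (r = 0.991), the peptidase-family gene AT5G66960 (0.974), AT2G14247 (0.967), MEF18 (0.965), AT1G12030 (0.963), MEF22 (0.962), ZIF1 (0.955) and NRAMP4 (0.955). AT1G13609 (chromosome 1, 4662721 to 4663219) was at 0 and 43.0 CPM in the wild-type pair, 82.9 and 86.3 CPM in 30 °C-grown plants, 0.841 and 1.02 CPM in generation 2, 0 and 11.3 CPM in generation 3, and 7.88 and 8.24 CPM in sgs3-12. AT2G14247 (chromosome 2, 6034348 to 6034835) had 0 and 19.6 CPM in wild type against 47.3 and 67.2 CPM in 30 °C-grown plants. Others were low in all 10 libraries: AT5G66960 (0.464 to 3.21 CPM), MEF18 (0.884 to 3.93 CPM) and MEF22 (0.280 to 2.41 CPM). When library 1 of wild type was left out, 4 of these 8 remained among the 8 highest. Among the regulators themselves, r with their mean ran from 0.881 for BTS to 0.9995 for IMA2. Each regulator is part of that mean, which raises its r, so these values do not compare with those of other genes.

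Clock genes differed between the libraries too. The 5 evening genes (TOC1, GI, PRR5, ELF4 and LUX) summed to 66.8 and 549 CPM in the wild-type pair, 64.2 and 68.1 CPM in 30 °C-grown plants, 23.7 and 55.4 CPM in generation 2, 42.9 and 21.2 CPM in generation 3, and 26.2 and 33.7 CPM in sgs3-12. Library 2 of wild type stood apart in this sum, as it did from library 1 in the regulators. The 30 °C-grown libraries were close to library 1 of wild type in the sum, though not gene by gene. GI stood at 42.9 CPM in that wild-type library against 16.9 and 20.0 CPM in 30 °C-grown plants. The others were higher in 30 °C-grown plants: PRR5 at 4.07 against 9.28 and 11.3 CPM, and ELF4 at 1.41 against 3.98 and 4.35 CPM. LUX stood at 4.07 against 15.8 and 11.7 CPM, and TOC1 at 14.3 against 18.3 and 20.8 CPM. PRR5, ELF4 and LUX, 3 of the 5, had the same 3 highest libraries as the regulators, as had 3.18% of all tested genes. The 4 morning genes (CCA1, LHY, PRR7 and PRR9) summed to 513 and 397 CPM in the wild-type pair, 199.6 and 244 CPM in 30 °C-grown plants, 156 and 754 CPM in generation 2, 211 and 689 CPM in generation 3, and 962 and 809.7 CPM in sgs3-12. PRR7 made up most of the wild-type sums, at 300 and 361 CPM. In that pair CCA1 stood at 110 and 13.8 CPM, LHY at 21.6 and 4.08 CPM and PRR9 at 81.5 and 18.6 CPM. PRR9 was lowest in the regulators' 3 highest libraries, as were 3.43% of all tested genes. The part of the clock genes in the regulators' levels was not tested.

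**Figure D5:**
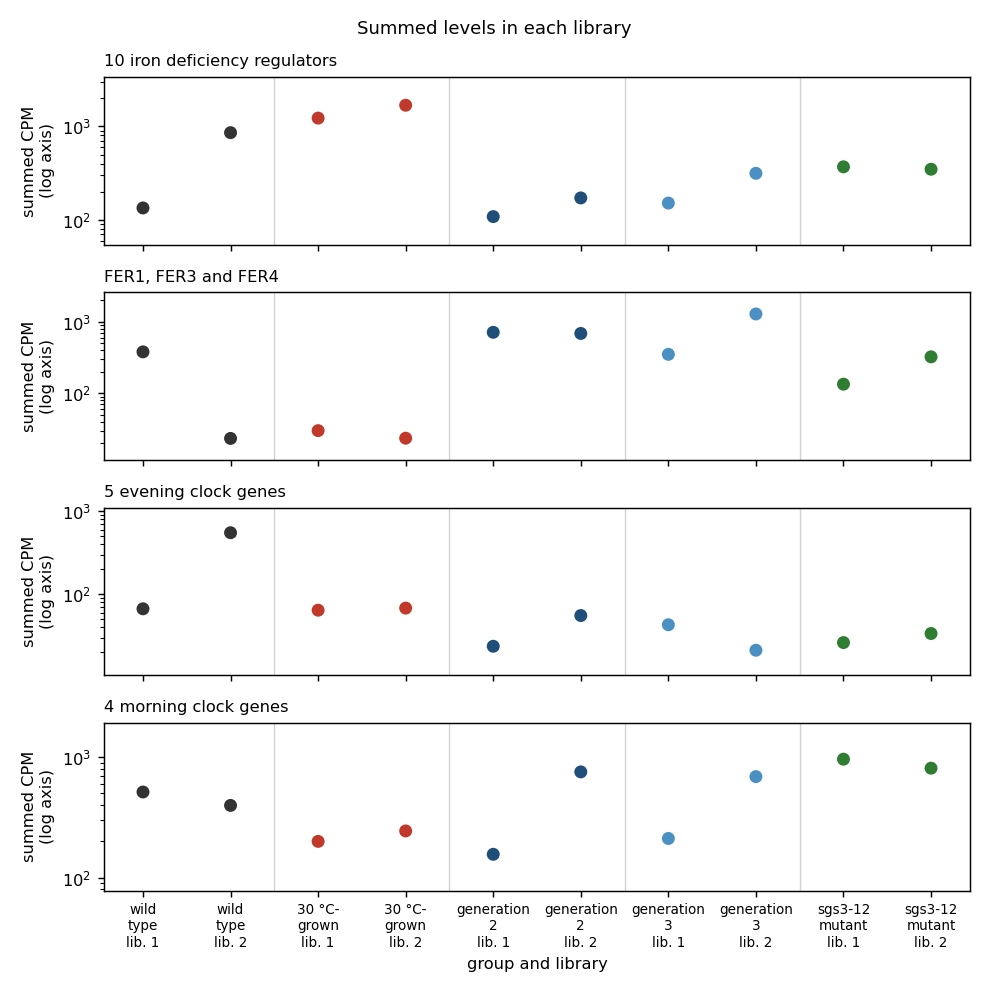
Summed CPM (vertical axes, log scale) in each library for the 10 regulators, for FER1, FER3 and FER4, for 5 evening clock genes and for 4 morning clock genes, 1 point per library. In library 1 of wild type the ferritins reach 379 CPM and the regulators 134 CPM, in library 2 they are at 23.4 and 858 CPM, and the evening genes are at 66.8 and 549 CPM.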

How the data were processed

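The authors' deposited table gave whole-number read counts per gene and FPKM (fragments scaled to gene length and library size) for the 10 libraries, per the file headers. HISAT2 2.0.4, StringTie 1.3.0 and TAIR10 are listed in the submitters' processing notes. Which program made the counts, and whether it used strand, was not given in the sources used here. Deposited FPKM equal counts over a length and the library total, so they give each gene's length. The header repeats the name of 1 library over 2 FPKM columns, which were not used.

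Counts were tested with edgeR 4.0.16 (R 4.3.3), using the quasi-likelihood F-test with TMM scaling, filterByExpr and group as the factor over all 10 libraries, and Benjamini-Hochberg adjustment over 19768 genes at 0.05. Of 6 comparisons, 4 were with wild type and 2 with 30 °C-grown plants. DESeq2 1.42.0, limma 3.58.1 on log2(CPM + 1), RLE scaling, no filter, a replicate block and each library left out were alternatives, as was the fit without the 2 libraries with the steepest fall with gene length, added after the data were seen. The fit was also run on simulated data, whose outcome is not given here, so that the power of the fit is left unstated. Sequences came from the TAIR10.1 genome and RefSeq gene starts; of 33602 IDs, 32835 matched that annotation and 99.997% of those overlapped the gene of the same ID.

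Named genes are the 10 members, the 3 genes with the smallest edgeR p per other iron list in any comparison with wild type, and the 8 most alike in pattern. Others were named after their values were seen. Members and lists were chosen with earlier results of these data known. Errors are standard errors unless stated.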

Additional observations from a re-analysis of the deposited data

How the results depend on the processing

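Of 960 member fold changes refitted under 16 alternatives, 923 kept their direction and side of the threshold, 34 turned sign and 3 passed it (DESeq2's calls). None of the 34 concerned 30 °C-grown plants against wild type or the progeny against 30 °C-grown plants. Against wild type, DESeq2 called 619 genes in generation 2, 191 in generation 3, 590 in sgs3-12 and 279 in 30 °C-grown plants, and it called 319 and 214 in generations 2 and 3 against 30 °C-grown plants, including 3 members in generation 2. limma on log2(CPM + 1) called 1 gene in 30 °C-grown plants and 9 in sgs3-12 against wild type, and 1 in each progeny group against 30 °C-grown plants. Without the filter, 1 gene was called in sgs3-12. Without library 1 of generations 2 and 3, where levels fell most steeply with length (slopes in other libraries remain), an alternative chosen after seeing the data, 50, 1222 and 801 genes were called against wild type in 30 °C-grown plants, generation 2 and sgs3-12, and 788 in generation 2 against 30 °C-grown plants. The members called stayed at 0 in all of these but DESeq2. The cause was not tested.

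The replicate block called 1 gene in generation 2 and 1 in sgs3-12 against wild type, 0 of them members. The labels do not say that the numbers pair the libraries. Deviations of same-numbered libraries correlated at −0.26 to 0.51 between groups, which does not settle whether they are paired.

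With 1 library left out, calls over all genes ranged from 0 to 34, 0 to 1637, 0 to 1 and 0 to 5 against wild type, for 30 °C-grown plants, generations 2 and 3 and sgs3-12, and from 0 to 487 and 0 to 0 in generations 2 and 3 against 30 °C-grown plants, with 0 members called. The counts of 34 and 487 came without library 1 of generation 2 and that of 1637 without its library 2 (764 without library 1); the 5 came without library 1 of wild type. The lone library of a group is then assumed to vary like the others. Log2 fold changes that turned did so without library 2 of wild type, or for OPT3 in sgs3-12 without library 1, and those against 0 counts depend on the prior count and are no estimates. In generation 2 against wild type they ranged from −11.44 to 6.96 for BHLH38, from −5.84 to 7.18 for BHLH39, from −5.42 to 7.23 for BHLH100, from −4.69 to 3.14 for BHLH101, from −6.94 to 5.30 for IMA1, from −5.32 to 6.63 for IMA2, from −3.72 to 4.83 for IMA3, from −1.75 to 0.69 for PYE and from −1.50 to 0.0343 for OPT3. In generation 3 they ranged from −11.42 to 9.88 for BHLH38, from −10.52 to 9.38 for BHLH39, from −11.70 to 9.74 for BHLH100, from −5.81 to 3.71 for BHLH101, from −10.20 to 8.12 for IMA1, from −5.89 to 8.90 for IMA2, from −3.65 to 6.30 for IMA3, from −1.38 to 1.15 for PYE and from −0.80 to 0.75 for OPT3. In sgs3-12 they ranged from −2.46 to 9.96 for BHLH38, from −2.65 to 8.87 for BHLH39, from −3.04 to 9.65 for BHLH100, from −3.83 to 4.06 for BHLH101, from −2.60 to 8.60 for IMA1, from −2.48 to 9.51 for IMA2, from −1.28 to 7.30 for IMA3, from −1.17 to 1.30 for PYE, from −1.58 to 1.05 for BTS and from −0.47 to 1.08 for OPT3. By limma, IMA3 turned to 0.38 in generation 3, and in sgs3-12 BHLH38 to 0.24, IMA2 to 0.0717, IMA3 to 2.02 and PYE to 0.0133. With the block, IMA3 turned to 0.76 in sgs3-12. Depth limits BHLH38, BHLH39, BHLH100, BHLH101, IMA1, IMA2 and IMA3 in libraries where they had 0 to 12 counts.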

Other observations

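Genes running opposite to the regulators were looked up after their values were seen. The chloroplast copper-zinc superoxide dismutase gene CSD2 was at 1032 and 138 CPM in the wild-type pair, 131 and 162 CPM in 30 °C-grown plants, 956 and 596 CPM in generation 2, 1011 and 235 CPM in generation 3, and 611 and 466 CPM in sgs3-12. Its libraries with the lowest levels were again library 2 of wild type and both 30 °C-grown ones. The carbonic anhydrase gene ACA2 had 2.79 and 0 CPM in wild type, then 0 and 0.0846 CPM in 30 °C-grown plants, against 3.70 and 2.09 CPM in generation 2. The kinase gene PPCK1, which acts on phosphoenolpyruvate carboxylase, was at 88.5 and 29.7 CPM in the wild-type pair, 20.3 and 16.4 CPM in 30 °C-grown plants and 106 and 57.0 CPM in generation 2. Over the 10 libraries, r with the mean of the regulators was −0.94 for CSD2, −0.93 for ACA2, −0.95 for PPCK1 and −0.93 for the ferritin gene FER4.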
